A study of Rattus norvegicus with 12 samples.

Results

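The cytosolic ribosomal protein genes were followed across 12 rat brain libraries. They were the rows of the deposited count table whose gene symbol starts with Rpl or Rps and a digit, less the 9 rows of the Rps6k kinases, and numbered 82 of 17337 rows. Of these, 73 were the standard proteins of the ribosome, 43 of the large subunit and 30 of the small subunit, and all 73 that were listed were found. The other rows were 6 paralogues (Rpl3l, Rpl22l1, Rpl36al, Rpl39l, Rps27l and Rps4y2), 2 rows named as pseudogenes (Rpl37a-ps1 and Rps4x-ps1) and 1 row, Rps19bp1, for a protein that binds RPS19 and is not itself part of the ribosome. A filter on low counts kept 80 of the 82. Rpl39l had 0 to 14 reads per library and Rps4x-ps1 had 0 to 18, and neither was tested.

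The cytosolic ribosome is built from a small and a large subunit, each of ribosomal RNA and a fixed set of proteins, and makes nearly all proteins of the cell. The mRNAs of these proteins are known for starting with a C and a run of pyrimidines, the 5′ terminal oligopyrimidine (TOP) motif, through which mTOR signalling controls their translation. In neurons, such mRNAs are also found in dendrites and axons.

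All rats were male Sprague-Dawley rats of postnatal day 60, and brain RNA was sequenced in 4 groups of 3. The sham group served as controls. The other 3 groups had their bile ducts ligated for 4 weeks (BDL), a surgical model of cirrhosis and hepatic encephalopathy. The BDL group proper received no vector. The AAV-GFP group was given an adeno-associated virus that codes for green fluorescent protein. The AAV-VEGFC group was given one that codes for vascular endothelial growth factor C, which drives the growth of lymphatic vessels. Injections of 20 µl went into the cisterna magna, the cerebrospinal fluid space below the cerebellum. No ligated group had an injection without vector, so injection, virus and GFP cannot be told apart in AAV-GFP against BDL. Neither labels nor design text give the promoters of the vectors.

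The series names the tissue as middle brain, but the libraries carried cortical markers and few midbrain ones. The 5 cortex markers, among them Slc17a7 and Camk2a, summed to between 2677 and 4018 CPM (counts scaled to library size) per library, and the 6 markers of midbrain monoamine neurons to between 6.04 and 11.1 CPM. Totals ran from 40296297 to 51669067 counts per library. Beyond the design text, nothing ties a library to an animal, so p-values measure the spread between these libraries. In bulk tissue, fewer cells of a type and less RNA per cell cannot be told apart.

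The libraries AAV-VEGFC 1, AAV-GFP 1 and sham 2 stood apart from their groups. AAV-VEGFC 1 did so in the ribosomal protein genes themselves, as given below, and its counts differed from those of its group by a chi-square of 222 to 229 per degree of freedom, against 11.7 to 29.3 for the pairs without AAV-VEGFC 1 or AAV-GFP 1. AAV-GFP 1 differed from its group by 73.3 to 95.7, with 6 immune markers summing to 256 CPM (17.3 to 50.2 elsewhere) and 7 pituitary and hypothalamic markers to 86.4 CPM (2.48 to 58.1 elsewhere). Sham 2 had 294 CPM of 6 choroid plexus markers (4.75 to 68.8 elsewhere). Results are therefore given with all 12 libraries and, where they rest on it, without AAV-VEGFC 1, a choice made after seeing the data.

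The starts of the genes show what the family shares in sequence. RefSeq start windows (build GRCr8) were found by symbol for 63 of the 82 rows. Those printed have 10 bases before the annotated start and 20 from it, and capitals mark a run of C and T that begins with a C at the start itself. Rpl9 and Rpl10 carry such a run, as does Rpl35a, a row that departed from the others below. Rps6 and Rpl12, the rows called below with all 12 libraries, do not carry it at the annotated start. In Rpl12 such a run begins at the base just before the start. Rpl10 is among the further rows called below without AAV-VEGFC 1. Rps23 has its C and T run on both sides of the start without a C there, and Rps19bp1 stands for a row outside the ribosome.
Rpl9 (chr14:43247580-43247609, + strand): aggacgttctCTCTTTgccccatctactgc
Rpl10 (chrX:157205840-157205869, + strand): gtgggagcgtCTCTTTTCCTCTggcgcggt
Rpl35a (chr11:81235002-81235031, - strand): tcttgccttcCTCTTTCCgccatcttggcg
Rps6 (chr5:106420521-106420550, - strand): ctcctaggcggtcggctgtgtcaagatgaa
Rpl12 (chr3:36661930-36661959, + strand): aacatccgtcttttcggctttcggttcgga
Rps23 (chr2:23814507-23814536, + strand): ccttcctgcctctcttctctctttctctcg
Rps19bp1 (chr7:113693004-113693033, - strand): tgtgggcggggcttggcagcatgtcggcgg

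A C followed by 4 bases that are each C or T stood exactly at the annotated start in 22 of 58 standard ribosomal protein genes with a window (37.9%), against 854 of 27457 genes of the table (3.11%). It began within 10 bases either side of the start in 45 of the 58 (77.6%), against 8594 genes (31.3%). The 54 mitochondrial ribosomal protein genes with a window, whose proteins form the separate ribosome of mitochondria, had it at the start in 2 (3.7%) and near it in 20 (37%). Only the gene's own strand was searched, since the motif is read in RNA, and no other motif was searched. Annotated starts can lie a few bases from the start used in brain, so a window without the run says only that these letters are not there.

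Ribosomal protein reads took a small and fairly even share of the sham and BDL libraries and a larger one of the vector libraries. The 82 rows held 1.03%, 1.14% and 1.09% of all counts in the sham libraries and 1.15%, 1.24% and 1.13% in the BDL libraries. They held 1.53%, 1.27% and 1.34% in AAV-GFP and 2.79%, 1.22% and 1.28% in AAV-VEGFC. Group shares were 1.09% ± 0.0533 in sham, 1.17% ± 0.0594 in BDL, 1.38% ± 0.133 in AAV-GFP and 1.77% ± 0.891 in AAV-VEGFC (SD, n = 3). AAV-VEGFC without replicate 1 was at 1.25% ± 0.0461 (SD, n = 2). Every AAV-GFP library was above every BDL library, and 1 of the 3 AAV-VEGFC libraries was below the highest BDL library.

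On the scale of summed CPM, AAV-VEGFC 1 was at 264% of the sham mean, AAV-VEGFC 2 at 115% and AAV-VEGFC 3 at 122%. The AAV-GFP libraries were at 140%, 121% and 128%, and the BDL libraries at 105%, 113% and 103%. The summed levels of the 3 AAV-GFP libraries lay above those of the 3 BDL libraries with no overlap, and AAV-VEGFC 2 and 3 lay between BDL 2 and AAV-GFP 3.

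**Figure D1:**
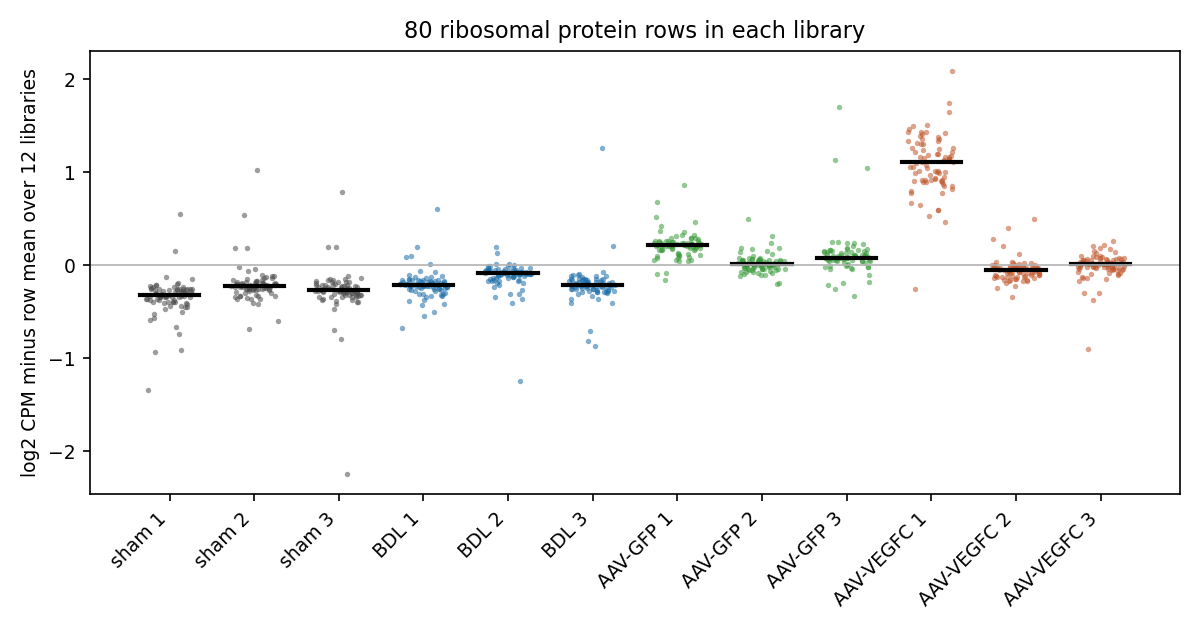
Level of the 80 tested ribosomal protein rows in each of the 12 libraries, as log2 CPM minus the row's mean over the 12 libraries (y axis). Each point is 1 row and the bar is the median of the library, which lies between -0.33 and -0.09 in sham and BDL, between 0.01 and 0.21 in AAV-GFP, and at 1.11, -0.05 and 0.01 in AAV-VEGFC 1, 2 and 3.

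The standard rows moved together across libraries. Pearson's r between a row's log2 CPM and the mean of the other rows over the 12 libraries had a median of 0.986, was above 0.9 in 66 of 73 rows and was lowest in Rps27a, at 0.727. Without AAV-VEGFC 1 the median was 0.952, and 53 of 73 were above 0.9. These points share their libraries and library scaling, so the values describe how even the family was and carry no test.

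A few rows departed from the family in single libraries. Rps6 lay 1.05 above the family's median on the log2 scale in AAV-GFP 3, and Rpl35a lay 0.96 above it in the same library. Rps27a lay 0.77 above it in sham 2. Rpl17 lay -0.60 from it in BDL 3 and Rps2 lay -0.61 from it in sham 1. RefSeq lists 1136 rat gene symbols of the same name pattern, of which 1056 are not rows of the deposited table. Such near-identical copies can take reads from the genes they resemble, and the authors' handling of reads that fit several places is not stated in the labels. Values of single rows are uncertain for this reason.

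Rps27a, which is made as a fusion with ubiquitin, had 91.1, 196 and 101 CPM in sham, 145, 112 and 105 in BDL, 217, 128 and 131 in AAV-GFP and 256, 107 and 120 in AAV-VEGFC. Single libraries of each group stood above the other 2 of that group, and all 4 groups overlapped. Rpl17 had 104, 178 and 171 CPM in sham, 225, 190 and 112 in BDL, 240.1, 204 and 207 in AAV-GFP and 495, 199 and 219 in AAV-VEGFC, so that BDL 1 and BDL 3 differed more from each other than the group means of BDL and AAV-GFP did. CPM is not corrected for transcript length, so levels of different genes are not ranked here. The rows with most reads were Rpl4, Rpl3, Rps7, Rpl13a and Rpl7, with 12-library means of 558, 514, 381, 357 and 328 CPM, and the tested rows with fewest were Rps19bp1, Rps4y2 and Rpl3l, with 3.19, 2.66 and 0.222 CPM.

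Bile duct ligation alone was compared with sham. No ribosomal protein row was called, where a call is an adjusted p under 0.05 in edgeR's quasi-likelihood test with Benjamini-Hochberg adjustment over 12850 genes. In the same comparison 0.109% of all tested genes were called, 0.0934% as higher and 0.0156% as lower. At an unadjusted p under 0.05 the count of members was also 0, DESeq2 and limma voom called 0, and the smallest adjusted p in edgeR was 0.983. The fit of sham and BDL alone called 1 row, Rpl10a, and 2.63% of all genes. Without AAV-VEGFC 1 in the fit the count was 0 too, with a smallest adjusted p of 0.148, where 0.571% of all genes were called.

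The fold changes in BDL against sham were small and mostly above 0. The median of the 80 rows was a log2 fold change of 0.09 (6.76% higher), with a range of -0.47 to 0.53, beside a median of 0.01 over all tested genes. It was 0.11 in the 43 large subunit rows and 0.08 in the 30 small subunit rows. In 72 of the 80 the change lay above 0. In 24 every BDL library lay above every sham library, and in 0 below, where 12.6% of all tested genes were higher without overlap and 12.4% lower. The median standard error of a row was 0.26 with all libraries in the fit, larger than the median change, and 0.067 without AAV-VEGFC 1, smaller than it. Markers of red blood cells moved with ligation: all 4 were called higher in BDL against sham, and they summed to 108, 147 and 119 CPM in sham and to 588, 803 and 404 in BDL. Their part in the small shift of the ribosomal protein rows was not tested.

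Rpl10a, a large subunit protein, had 73.2, 76.7 and 77.1 CPM in sham and 85.0, 89.1 and 86.5 in BDL. The groups did not overlap, and the log2 fold change was 0.20 ± 0.20 (SE), adjusted p 0.9999 in edgeR. Rps19, a small subunit protein known from Diamond-Blackfan anaemia, had 73.5, 74.0 and 67.4 CPM in sham and 80.9, 84.7 and 84.2 in BDL, also without overlap and not called (log2 0.22 ± 0.27). Rps6, the substrate of the S6 kinases, overlapped between the groups, with 12.8, 12.7 and 15.4 CPM in sham and 12.1, 15.7 and 10.6 in BDL.

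The rows with the smallest p in each direction were not standard ribosomal proteins, apart from Rpl7a and Rpl10a. Rps4y2, a paralogue of Rps4x, had 0.958, 2.32 and 1.94 CPM in sham and 2.15, 2.49 and 2.89 in BDL (log2 0.53 ± 0.34, adjusted p 0.983). Rpl7a, a large subunit protein, had 10.9, 9.85 and 9.54 CPM in sham and 12.6, 13.1 and 10.8 in BDL (log2 0.27 ± 0.18). Both pairs of groups overlapped. Rps19bp1 (log2 -0.17 ± 0.21) and Rpl36al (log2 -0.10 ± 0.22), a paralogue of Rpl36a, lay below 0 with overlapping groups.

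The row with the lowest log2 fold change in BDL was the pseudogene row Rpl37a-ps1, at -0.47 ± 0.31. It had 29.7, 53.4 and 80.7 CPM in sham and 37.1, 42.7 and 38.7 in BDL. Its parent Rpl37a, a large subunit protein, had 125, 109 and 83.7 CPM in sham and 123, 137 and 129 in BDL. Among the sham libraries the parent row was lower where the pseudogene row was higher, which was not so in BDL, where BDL 2 had the most of both. The sum of both was 154, 163 and 164 CPM in sham and 160.5, 180 and 168 in BDL. The pseudogene row took 19.2%, 32.8% and 49.1% of that sum in the sham libraries and 23.05% to 23.7% in the BDL libraries.

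**Figure D2:**
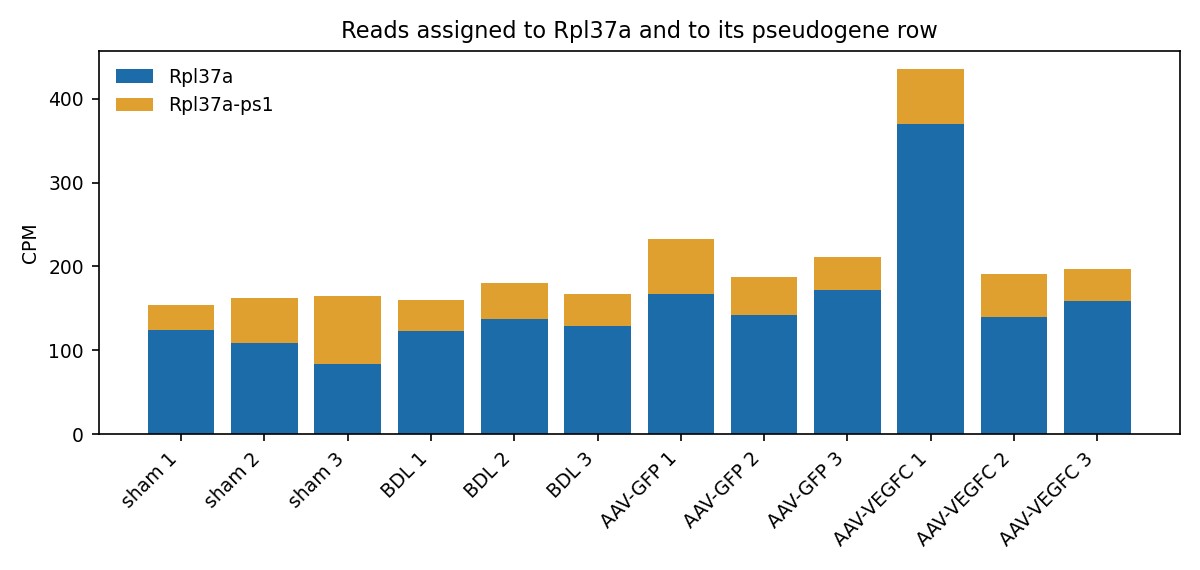
CPM of Rpl37a (blue) and of its pseudogene row Rpl37a-ps1 (orange), stacked for each of the 12 libraries (y axis from 0). The stacks of sham 1, 2 and 3 are of similar height (154 to 164 CPM), while the orange part is 19.2%, 32.8% and 49.1% of them.

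AAV-GFP was compared with BDL to see what an injected control vector goes along with. Ribosomal protein levels were higher by 21.9% in the median row (log2 0.29), with quartiles of 0.24 and 0.32 and a range of -0.17 to 1.18, beside a median of 0.01 over all tested genes. The large subunit rows had a median of 0.30 and the small subunit rows of 0.27. In 62 of the 80 rows every AAV-GFP library lay above every BDL library and in 0 below, while 18.2% of all tested genes were higher without overlap and 20% lower.

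How many of these passed the test turned on AAV-VEGFC 1, a library in neither group. With all 12 libraries in the fit, which share 1 estimate of spread, 1 of 80 rows was called, Rps6, where 6.19% of all genes were called in either direction, 0.988% as higher and 5.2% as lower. Without AAV-VEGFC 1 in the fit, 56 of 80 were called, all higher, where 22.7% of all genes were called and 10.1% as higher. The median of the rows was 0.29 in both fits. Their median standard error was 0.26 with all libraries, beside 0.14 over all tested genes, and 0.067 without AAV-VEGFC 1. That library was picked for its level in these rows, so the shares of all genes are not an even comparison. The fit of the 2 groups alone called 39 rows, where 16.1% of all genes were called and 6.35% as higher. Limma voom with quality weights called 49 rows, where 36.5% of all genes were called and 17.1% as higher. DESeq2 called 1 row and 8.28% of all 17337 rows, a share taken without the filter on low counts.

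In the fit without AAV-VEGFC 1, the called rows were 33 of 43 in the large subunit, 22 of 30 in the small subunit and Rpl22l1 among the 7 other rows. Their increases ran from 13.4% to 127%, with adjusted p from 0.00161 to 0.0456. The 10 large subunit rows that were not called were Rpl7a, Rpl8, Rpl9, Rpl14, Rpl17, Rpl19, Rpl23, Rpl35a, Rpl37 and Rpl37a. The 8 of the small subunit were Rps2, Rps9, Rps15a, Rps16, Rps20, Rps25, Rps27a and Rps29. Of these 18, Rpl7a (log2 -0.01) and Rpl8 (log2 -0.17) lay below 0.

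Rps6, the small subunit protein phosphorylated by the S6 kinases downstream of mTOR, had the largest change of the family. It had 12.1, 15.7 and 10.6 CPM in BDL and 24.0, 20.3 and 42.6 in AAV-GFP, so the groups did not overlap and AAV-GFP 3 was well above the other 2. It rose by a log2 fold change of 1.18 ± 0.29 (adjusted p 0.0334 with all libraries in edgeR, 0.00839 without AAV-VEGFC 1). Across all alternatives its adjusted p ranged from 0.000896 to 0.131. On leaving out single libraries of the 2 groups, the call was lost without BDL 1, BDL 2, BDL 3 or AAV-GFP 3, and without AAV-GFP 3 the log2 fold change was 0.79 (adjusted p 0.126).

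Rpl21, a large subunit protein, had 45.3, 51.9 and 61.7 CPM in BDL and 88.6, 82.3 and 78.7 in AAV-GFP. The groups did not overlap and the log2 fold change was 0.65 ± 0.26 with all libraries (adjusted p 0.179) and 0.65 ± 0.12 without AAV-VEGFC 1 (adjusted p 0.0041). Rpl35a had 4.79, 6.06 and 3.94 CPM in BDL and 5.78, 7.30 and 13.4 in AAV-GFP. Here the groups overlapped, AAV-GFP 3 was again the highest, and neither fit called the row (log2 0.84 ± 0.36, adjusted p 0.211 with all libraries and 0.0699 without AAV-VEGFC 1).

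**Figure D3:**
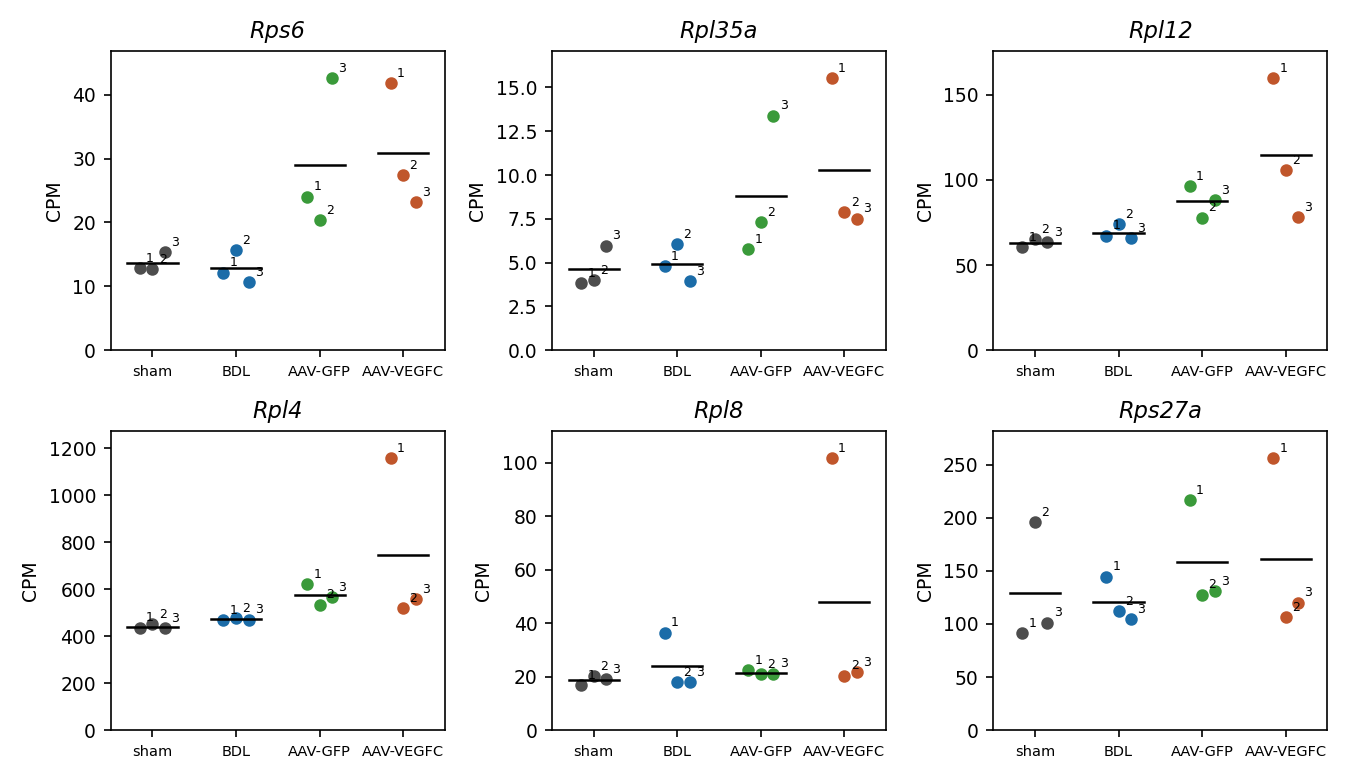
CPM of Rps6, Rpl35a, Rpl12, Rpl4, Rpl8 and Rps27a (y axes, each from 0) in the 4 groups, with 1 point per library numbered by replicate and a bar at the mean of 3. Rps6 and Rpl35a are highest in AAV-GFP 3 and AAV-VEGFC 1, Rpl4 and Rpl8 are highest in AAV-VEGFC 1 (1159 and 102 CPM), Rpl8 is also raised in BDL 1 (36.5 CPM), and Rps27a has single high libraries, among them sham 2 with 196 CPM.

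Rpl4, a large subunit protein, gives the more usual picture of the family. It had 467, 478 and 471 CPM in BDL and 620.2, 535 and 567 in AAV-GFP, without overlap. Its log2 fold change was 0.28 ± 0.24 with all libraries (adjusted p 0.546) and 0.28 ± 0.05 without AAV-VEGFC 1 (adjusted p 0.00491).

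The standard rows chosen for a known role, apart from Rps6, lay in the same range. Rpl5 and Rpl11, which bind Mdm2 and so hold back the degradation of p53, rose by 14.8% and 22.9% in the fit without AAV-VEGFC 1 (adjusted p 0.0373 and 0.00789). Rpl23, which also binds Mdm2, was at 14.8% and not called (adjusted p 0.0505). Rpl11 had 122, 136 and 122 CPM in BDL and 168, 148 and 151 in AAV-GFP, without overlap. Rps14 rose by 31.1% (adjusted p 0.00161), from 227, 250 and 224 CPM in BDL to 290.1, 303 and 325, also without overlap, as did Rps19 by 26.5% (adjusted p 0.00501). Rpl10, Rpl10a, Rpl13a, Rps3 and Rpl38 were called in that fit too, with increases of 15.1%, 19.4%, 22.7%, 18.8% and 25.2%. Rps25 (14.6% with all libraries) was called in neither, nor was Rps27a (31.5% without AAV-VEGFC 1, adjusted p 0.372).

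The rows outside the standard set behaved less evenly. Rpl22 and its paralogue Rpl22l1 had similar read levels in every library: Rpl22l1 took 45.6% to 54.6% of the sum of both. Rpl22l1 had 51.4, 50.9 and 42.8 CPM in BDL and 55.5, 60.9 and 60.0 in AAV-GFP, without overlap. Rps19bp1 had 3.19, 3.02 and 2.89 CPM in BDL and 2.94, 3.23 and 2.71 in AAV-GFP, and overlapped (log2 -0.03 ± 0.21). Rps27l, a paralogue of Rps27 known as a p53 target, had 6.03, 6.53 and 6.05 CPM in BDL and 7.01, 6.53 and 7.14 in AAV-GFP and was called in neither fit.

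Ribosomal RNA reads moved with the same groups. Rn18s, the 18S ribosomal RNA of the small subunit, made up 0.137% to 0.306% of counts without a vector and 0.43% to 1.16% with one (AAV-GFP against BDL log2 2.0 ± 0.34, adjusted p 0.00535). Within the vector groups the order was otherwise: AAV-GFP 1 had the least Rn18s of the 6 (4245 CPM) and AAV-VEGFC 1 the next (7616 CPM), and these had the most ribosomal protein reads of their groups. The part of RNA composition in the result was not tested. AAV-GFP 1, with its immune and pituitary markers, had the highest share of the AAV-GFP libraries, and the other 2, at 1.27% and 1.34%, were also above all 3 BDL libraries. Without AAV-GFP 1, sham 2 and AAV-VEGFC 1, 43 of the rows were called in this comparison, all higher, where 28.3% of all genes were called and 12.7% as higher.

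AAV-VEGFC was compared with AAV-GFP, the comparison closest to the effect of the growth factor. Its direction rested on 1 library. With all libraries the median of the 80 rows was a log2 fold change of 0.34 (26.3% higher), and 78 lay above 0. Without AAV-VEGFC 1 the median was -0.13 (-8.83%), and 3 lay above 0. The medians over all tested genes were 0.01 and -0.02.

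No row was called in AAV-VEGFC against AAV-GFP by edgeR's quasi-likelihood test in either fit, and DESeq2 and limma voom also called 0 with all libraries. With all libraries 1 member, Rpl9, had an unadjusted p under 0.05, the smallest adjusted p was 0.948, and 0.00778% of all genes were called. Without AAV-VEGFC 1 the smallest adjusted p was 0.0886, in Rpl22, and 0.0694% of all genes were called. No row had all 3 AAV-VEGFC libraries above all AAV-GFP libraries (3.29% of all tested genes did), and 1 row, Rpl3l, had them below (2.77%). AAV-VEGFC 2 and 3 both lay below all AAV-GFP libraries in 33 of the 80 rows and above them in 0, where 15.5% of all tested genes were lower and 15.9% higher.

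Rpl3l, a paralogue of Rpl3 best known from muscle, rested on few reads: 8, 11 and 31 in AAV-GFP and 5, 8 and 3 in AAV-VEGFC (log2 -1.52 ± 1.05, adjusted p 0.948). Rpl22 had 62.4, 61.9 and 58.0 CPM in AAV-GFP and 112, 49.3 and 52.0 in AAV-VEGFC. AAV-VEGFC 1 was above, and the other 2 below, all AAV-GFP libraries. Its log2 fold change was 0.23 ± 0.25 with all libraries and -0.26 ± 0.06 without AAV-VEGFC 1. Rpl22l1 had the same order, with 135, 49.2 and 43.6 CPM in AAV-VEGFC.

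**Figure D4:**
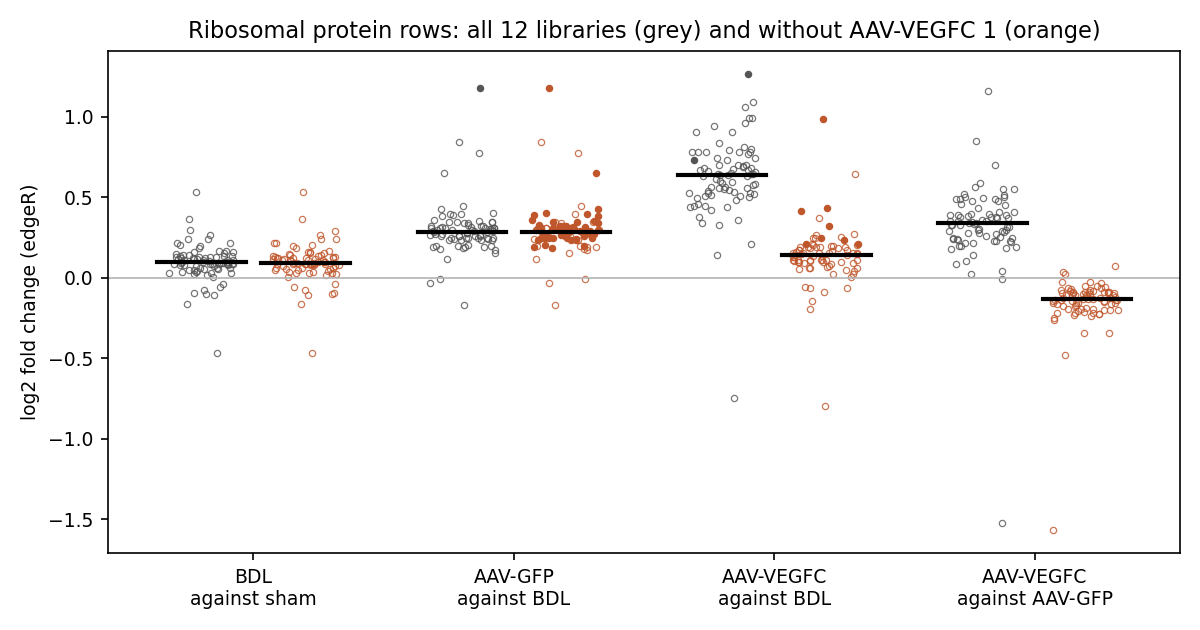
Log2 fold changes (y axis) of the 80 tested rows in the 4 comparisons (x axis), with all 12 libraries (grey) and without AAV-VEGFC 1 (orange). Each circle is 1 row, filled circles are rows called at an adjusted p under 0.05, and bars are medians; the median of AAV-VEGFC against AAV-GFP lies at 0.34 with all libraries and at -0.13 without AAV-VEGFC 1, while that of AAV-GFP against BDL is 0.29 in both.

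AAV-VEGFC 1 was high throughout the family, though unevenly. Against the mean of AAV-VEGFC 2 and 3 its level was 2.22-fold in the median row, with quartiles of 1.87 and 2.47. The ratio was above 1 in 80 of 80 rows and above 1.5 in 77. For all tested genes the ratio was taken to the mean log2 level of AAV-VEGFC 2 and 3, a slightly different measure. By it 17.3% of all tested genes were above 1.5 and their median was 1.03. In 76 of the 80 this library was the highest of the 12, as it was for 27.2% of all tested genes. The other libraries were not searched in the same way, since this one was picked for its high level.

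The rows differed in how far they stood out in AAV-VEGFC 1. Rpl8, a large subunit protein, had 102 CPM there and 20.4 and 21.8 in the other AAV-VEGFC libraries, a ratio of 4.82. Rpl9 had 806 CPM against 228 and 257 (3.32-fold). Rps14, Rps12, Rpl13a and Rpl41 had ratios between 2.82 and 2.98. At the other end, Rpl3l was at 1.12-fold, Rpl6 at 1.51, Rpl15 at 1.57, Rpl7a at 1.63 and Rps6 at 1.65. Rpl8 was also high in BDL 1, with 36.5 CPM against 18.1 and 18 in the other BDL libraries. The library's Rn18s share was 0.749%, its red blood cell markers summed to 1215 CPM (404 to 878 in the other ligated libraries) and its cortex markers to 3373 CPM, within the range of the others. Whether these bear on its ribosomal protein level was not tested.

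AAV-VEGFC against BDL, which shares the BDL libraries with AAV-GFP against BDL and the vector libraries with the comparison above, gave a median log2 fold change of 0.64 (55.7%), in a range of -0.75 to 1.27. Without AAV-VEGFC 1 it was 0.14 (10.4%). With all libraries 2 rows were called, Rps6 and Rpl12, both higher, where 9.93% of all genes were called, 2.91% as higher and 7.02% as lower. The unadjusted p was under 0.05 in 64 rows, as it was in 29.2% of all tested genes. In 39 rows the groups did not overlap, all higher (14.6% of all tested genes). AAV-VEGFC 2 and 3 both lay above all BDL libraries in 39 rows and below them in 1, where 25.2% of all tested genes were higher and 27% lower. Without AAV-VEGFC 1, 8 rows were called, where 17.6% of all genes were called and 7.5% as higher.

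Those 8 rows were Rps6, Rps18, Rpl12, Rpl21, Rpl24, Rpl27, Rpl28 and Rpl34. They rose by 15.5% to 97.9%, with adjusted p from 0.0126 to 0.0472. The count moved with single libraries: it was 59 without AAV-VEGFC 2, 11 without AAV-VEGFC 3, 1 (Rps6) without BDL 2, and 0 without BDL 1 or BDL 3. DESeq2 called 28 rows, limma voom 4 and the fit of the 2 groups alone 1 (Rps6), beside 13.4%, 19.4% and 2.62% of all genes. The DESeq2 share is again of all 17337 rows, without the filter on low counts. Without AAV-VEGFC 2, 16.8% of all genes were called, and without AAV-VEGFC 3 9.89%. Calls fell among all genes too without BDL 1, BDL 2 or BDL 3, to 4.52%, 5.18% and 5.45%.

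Rps6 had 41.8, 27.4 and 23.2 CPM in AAV-VEGFC, all above the 3 BDL libraries. It rose by 1.27 ± 0.29 on the log2 scale (adjusted p 0.0182), and by 0.98 ± 0.27 without AAV-VEGFC 1 (adjusted p 0.0343). Limma voom did not call it (adjusted p 0.0577), nor did the fits without BDL 1 or BDL 3 (adjusted p 0.0786 and 0.079). Against AAV-GFP it overlapped, at 0.09 ± 0.28.

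Rpl12, a large subunit protein at the base of the stalk where translation factors bind, had 67.3, 73.9 and 65.7 CPM in BDL and 159.8, 106 and 78.2 in AAV-VEGFC. The groups did not overlap, and the 3 AAV-VEGFC libraries were far apart. It rose by 0.73 ± 0.20 (adjusted p 0.0396) with all libraries and by 0.42 ± 0.12 without AAV-VEGFC 1 (adjusted p 0.0386). The call was lost in the fit of the 2 groups alone (adjusted p 0.174) and without BDL 1, BDL 2 or BDL 3 (adjusted p 0.127, 0.0836 and 0.126).

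Rpl28, a large subunit protein, had 132, 137 and 135 CPM in BDL and 285, 154 and 164 in AAV-VEGFC, and rose by 18.4% without AAV-VEGFC 1 (adjusted p 0.0126). Rps18, a small subunit protein, had 127, 138 and 124 CPM in BDL and 449, 156 and 167 in AAV-VEGFC, and rose by 24.7% (adjusted p 0.0152). In both, AAV-VEGFC 2 and 3 were a little above the BDL libraries and AAV-VEGFC 1 far above. Rpl21 missed the call with all libraries (log2 0.90 ± 0.26, adjusted p 0.05001) and was called without AAV-VEGFC 1 (0.43 ± 0.13, adjusted p 0.0472).

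Ribosomal proteins whose symbols fall outside the name pattern showed like values. Of 8 listed names 7 were found, among them Rplp0, Rplp1 and Rplp2 of the stalk, Rpsa of the small subunit and Gnb2l1, the older symbol of the scaffold Rack1. Their sum was at 143%, 125% and 127% of the sham mean in AAV-GFP and at 241%, 112% and 119% in AAV-VEGFC. In AAV-GFP against BDL none was called with all libraries and 6 of 7 without AAV-VEGFC 1, all higher, with a median of 0.34 in both.

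Rplp2, a stalk protein, had 4.62, 4.57 and 3.82 CPM in BDL, 7.72, 5.84 and 7.32 in AAV-GFP and 11.4, 6.68 and 8.28 in AAV-VEGFC. Every vector library lay above every library without a vector. It rose by 1.02 ± 0.19 in AAV-VEGFC against BDL (adjusted p 0.00681), and was at 0.68 ± 0.19 in AAV-GFP against BDL (adjusted p 0.0598).

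Genes of related functions were read beside the family, as counts and medians. Of the 19 tested translation factors and other genes with TOP mRNAs, 0 were called in AAV-GFP against BDL (median 0.17), and without AAV-VEGFC 1 in the fit 9 rose and 1, Gas5, fell. For this list and those that follow, the fit of AAV-GFP against BDL without AAV-VEGFC 1 called 22.7% of all genes, 10.1% as higher. The fit of all libraries called 6.19%. The 9 were Eef1a1, Eef1b2, Eef1d, Eef1g and Eef2 of translation elongation, Eif3f of initiation, Naca and Btf3 of the nascent polypeptide complex, and Tpt1, by log2 0.17 to 0.28. Eef2, the elongation factor that moves the ribosome along the mRNA, had 1474, 1477 and 1471 CPM in BDL, 1800.4, 1665 and 1703 in AAV-GFP and 2169, 1636 and 1733 in AAV-VEGFC. Both vector groups lay above BDL without overlap, and it rose in AAV-VEGFC against BDL by 0.32 ± 0.09 (adjusted p 0.0473). Gas5, a non-coding RNA with a TOP start, lay the other way, with 19.1, 21.5 and 17 CPM in BDL and 11.1, 11.9 and 12.3 in AAV-GFP (log2 -0.71 ± 0.20, adjusted p 0.0612 with all libraries and 0.000472 without AAV-VEGFC 1).

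Genes that build the ribosome kept to a narrow range in their sum, while single genes went both ways. The summed CPM of 40 ribosome biogenesis genes stayed between 96.6% and 100.4% of the sham mean in all 12 libraries, AAV-VEGFC 1 included at 100.1%. In AAV-GFP against BDL their median was -0.02, with 0 higher and 2 lower called with all libraries, and 4 higher (Bop1, Eif6, Nop10 and Nop16) and 7 lower without AAV-VEGFC 1, shares near those of all genes. The 2 called with all libraries were Taf1d, a factor of RNA polymerase I transcription, which fell by 1.54 on the log2 scale (± 0.17, adjusted p 0.000296), and Dkc1, the pseudouridine synthase dyskerin, which fell by 0.30 (± 0.06, adjusted p 0.00844). Taf1d had 11.3, 12.5 and 10.8 CPM in BDL and 3.42, 4.23 and 4.21 in AAV-GFP, with no overlap.

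**Figure D5:**
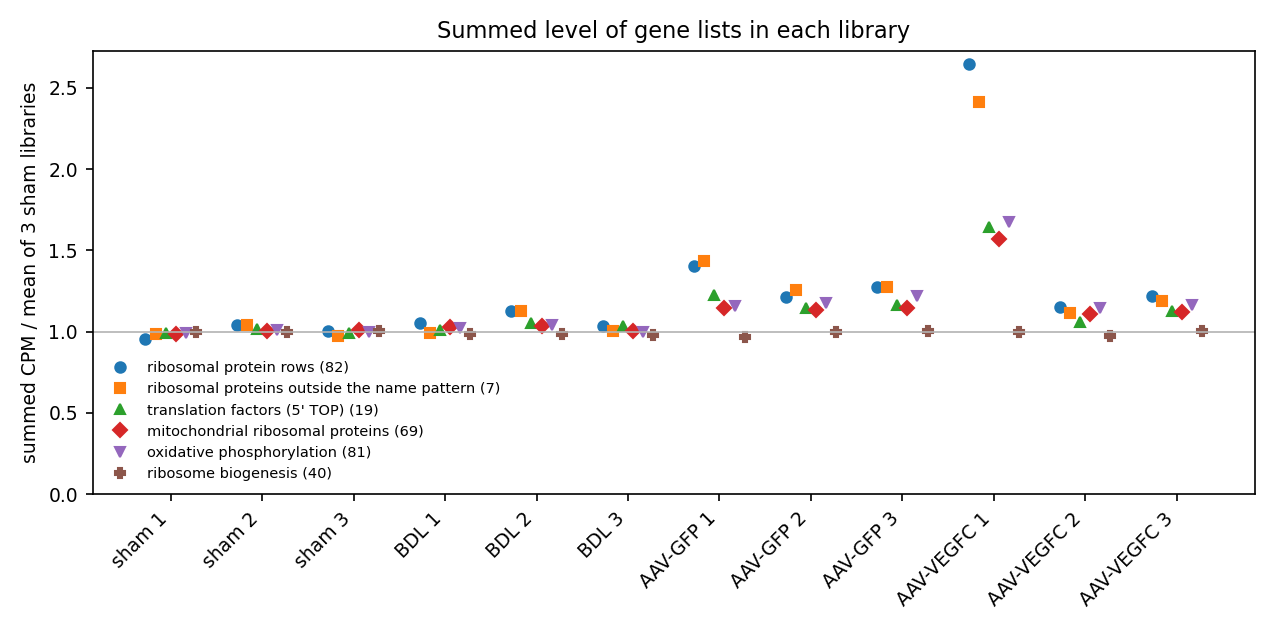
Summed CPM of 6 gene lists in each of the 12 libraries, divided by the mean of the 3 sham libraries (y axis from 0, grey line at 1). In AAV-VEGFC 1 the ribosomal protein rows and the 7 ribosomal proteins outside the name pattern are at 264% and 241% of the sham mean, oxidative phosphorylation genes at 167%, translation factors at 164%, mitochondrial ribosomal proteins at 157% and ribosome biogenesis genes at 100.1%.

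Mitochondrial genes moved with the family, and outside AAV-VEGFC 1 the oxidative phosphorylation genes did so about as far. The 69 mitochondrial ribosomal protein genes were at 113% to 115% of the sham mean in AAV-GFP and at 157%, 111% and 112% in AAV-VEGFC. The sum of oxidative phosphorylation genes was at 116%, 118% and 122% in AAV-GFP and at 167%, 115% and 117% in AAV-VEGFC. In AAV-GFP against BDL their median was 0.16, with 0 called with all libraries and 22 called, all higher, without AAV-VEGFC 1. Of 79 tested oxidative phosphorylation genes the median was 0.24, with 1 called, Atp5d, a subunit of ATP synthase (log2 0.33 ± 0.07, adjusted p 0.0155), and 58 called, all higher, without AAV-VEGFC 1. In AAV-VEGFC against BDL 6 and 16 were called with all libraries, and 9 and 28 without AAV-VEGFC 1, all higher. The family had 2 and 8 of 80 rows called, and 2.91% and 7.5% of all genes were called higher in these fits. Without AAV-VEGFC 1 the oxidative phosphorylation median there was 0.16, beside 0.14 in the family.

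Of 24 tested genes of mTOR signalling, the pathway that acts on TOP mRNAs, the median in AAV-GFP against BDL was -0.05. Called with all libraries were Ddit4, an inhibitor of mTOR complex 1, which rose by 0.81 ± 0.15 (adjusted p 0.00707), Mycn, a transcription factor of the Myc family, which fell by 0.85 (± 0.23, adjusted p 0.0491), and Rps6kb2, one of the kinases of the RPS6 protein, which fell by 1.11 (± 0.14, adjusted p 0.000881). Rps6kb2 had 24.9, 23.4 and 19.9 CPM in BDL, 9.45, 10.7 and 11.4 in AAV-GFP and 13.3, 11.1 and 9.16 in AAV-VEGFC. The groups with and without vector did not overlap. Without AAV-VEGFC 1 in the fit 2 of the 24 were called higher, Ddit4 and Akt1, and 5 lower, with Rps6ka3, Eif4ebp2 and Rps6kb1 beside Mycn and Rps6kb2. This is near the share of all genes. Rps6kb1, the other of these kinases, was at -0.22 ± 0.07 and not called with all libraries (adjusted p 0.0904), and fell without AAV-VEGFC 1 (-0.22 ± 0.06, adjusted p 0.025).

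Of 13 tested genes of the p53 and integrated stress responses, 0 were called in AAV-GFP against BDL (4 without AAV-VEGFC 1: Atf3, Atf4, Ddit3 and Chac1, all higher). With all libraries 3 were called in AAV-VEGFC against BDL, Atf3, Atf4 and Ppp1r15a, all higher, where 2.91% of all genes were called higher. Without AAV-VEGFC 1 the latter comparison called 5 higher, with Cdkn1a and Chac1 added, and 1 lower, Bax (log2 -0.32, adjusted p 0.0374 in edgeR), where 7.5% of all genes were called higher and 17.6% in either direction. Atf4, the transcription factor of the integrated stress response, had 176, 180 and 170 CPM in BDL, 193, 205 and 214 in AAV-GFP and 219.9, 218 and 246 in AAV-VEGFC. It rose in AAV-VEGFC against BDL by 0.38 ± 0.07 (adjusted p 0.00608), and AAV-VEGFC 1 did not stand out. No gene of these lists of related functions was called in BDL against sham or in AAV-VEGFC against AAV-GFP with all libraries.

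The tested genes outside the family whose level over the 12 libraries was most like its mean included Gnb2l1 (r = 0.996), Rpsa (0.995), S100b (0.995) and Ndufb4 (0.994). Over the 11 libraries without AAV-VEGFC 1 they were Rplp0 (0.988), Cox6a1 (0.988), Gnb2l1 (0.983), Eef1g (0.978) and Rpsa (0.978). Gnb2l1, Rpsa and Rplp0 code for ribosomal proteins outside the name pattern. S100b is a calcium-binding protein of astrocytes, and Ndufb4 and Cox6a1 belong to the respiratory chain. These values describe the same libraries and share their scaling.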

How the data were processed

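Brain RNA of 12 rats was sequenced with a TruSeq RNA kit, per the labels' protocols. What the authors deposited are read counts by gene symbol, without normalization. The tools were FastQC, Trimmomatic 0.36, HISAT2 and featureCounts, with build rn6, per the submitters' processing notes. Settings, annotation, strandedness and the treatment of reads that fit several places were not given in the sources used here. Of the 12 deposited files, 11 hold 1 library and equal the columns of the table of all 12.

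From these counts, TMM factors were computed in edgeR 4.0.16 (R 4.3.3). After filterByExpr, 12850 genes entered 1 quasi-likelihood model of 12 libraries with 4 group means. Adjusted p is Benjamini-Hochberg over all tested genes, and a call is an adjusted p under 0.05. The SE is the size of the fold change over the square root of F. CPM uses TMM factors, and log2 CPM a prior count of 2. The fit was checked on simulated counts. No 2 libraries of a group agreed within sampling noise.

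The members, the gene lists and the rule for named genes were chosen with earlier results of these data known. Named were every row failing the filter, the 3 rows with the smallest p in each direction of each comparison (more where called), the rows with most and fewest reads, rows fixed by role, paralogue pairs, and up to 2 genes of smallest p in each list. Of these the text gives the ones that carry values not already shown. Other names (called genes of short counts, rows that departed from the family or were extreme in AAV-VEGFC 1, Rps6kb1) were chosen after their values were seen. Marker lists of other tissues were read as sums. Rpl10l and Rpl7l1 have no row under these symbols in the count table.

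Alternatives were DESeq2 1.42.0 (size factors and its own test), upper-quartile factors, limma 3.58.1 voom with quality weights, other filters, the compared groups alone, a replicate block, standard rows only and leaving out each library. Start windows came from RefSeq (GRCr8), a build other than that of the counts, and were joined by symbol only. Some items are not reported here.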

Additional observations from a re-analysis of the deposited data

How the results depend on the processing

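Other scalings and filters on low counts moved none of the family's medians or counts of calls by over 1.5 times; the test and the libraries did. Rows called in AAV-GFP against BDL numbered 1 in the fit of all libraries, 49 in limma voom, 39 with the compared groups alone and 0 to 1 on leaving out 1 library of either group. In AAV-VEGFC against BDL they numbered 2, and 28 in DESeq2, 4 in voom, 1 with the compared groups alone and 0 to 59 on leaving out 1 library. In BDL against sham the compared groups alone called 1, against 0. Chosen after seeing the data, leaving AAV-VEGFC 1 out of the spread gave 56 in AAV-GFP against BDL, where 22.7% of all genes were called. Also chosen so, leaving out sham 2, AAV-GFP 1 and AAV-VEGFC 1 gave 43 there, where 28.3% of all genes were called. It gave 19 in AAV-VEGFC against BDL, a share near the 24.2% of all genes called. In AAV-VEGFC against AAV-GFP it gave 1, Rpl22l1, which was lower (-0.37, adjusted p 0.0435 in edgeR), where 9.26% of all genes were called.

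The median of AAV-VEGFC against AAV-GFP was 0.34, -0.063 in voom, -0.071 without those 3 libraries and -0.13 to 0.53 on leaving out 1 library. That of AAV-VEGFC against BDL was 0.64, 0.18 in voom, 0.14 without the 3 and 0.14 to 0.84 on leaving out 1. Those of BDL against sham and AAV-GFP against BDL ranged from 0.06 to 0.12 and from 0.22 to 0.33.

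All genes called in BDL against sham numbered 14, with 103 in DESeq2, 347 in voom, 332 for the groups alone, 209 without the 3 libraries, 74 without AAV-VEGFC 1 and 12 to 17 on leaving out 1 library. In AAV-GFP against BDL they numbered 795, with 1435, 4687, 2023, 3646 and 2945 in that order and 386 to 859. In AAV-VEGFC against AAV-GFP they numbered 1, with 10 in DESeq2, 0 for the groups alone, 1193 without the 3 and 0 to 22. In AAV-VEGFC against BDL they numbered 1276, with 2315, 2488, 330 and 3123 in the order of the first 4 and 586 to 2284.

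Replicate numbers did not pair the libraries: deviations of the same number correlated between -0.07 and 0.07. With the replicate block, 0 rows were called in AAV-GFP against BDL (Rps6 at adjusted p 0.0806 in edgeR), where 4.28% of all genes were called. In AAV-VEGFC against BDL the block fit called 1 row (Rps6, with Rpl12 at adjusted p 0.0589) and 7.04% of all genes. In AAV-VEGFC against AAV-GFP it called 0 genes of all. The causes of these shifts were not tested. Among the standard rows Rpl35a had the fewest reads, 196 to 677 per library, and whether depth limited such rows was not tested. Rpl3l, Rpl39l and Rps4x-ps1 had too few reads for a change to be seen. Reads shared among copies may limit single rows, which was not tested.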
